A study of Rattus norvegicus with 22 samples.

Results

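Acute-phase proteins are secreted in large amounts when tissue is injured or infected. The liver is their main source, but epithelia, macrophages and neutrophils also make some of them. The genes described here are 9 of that class and of the related secreted defence proteins: Lcn2 (lipocalin 2, which binds the iron carriers of bacteria), Hp (haptoglobin, which binds free hemoglobin), Cp (ceruloplasmin, a copper-bearing ferroxidase), Lbp (lipopolysaccharide binding protein), Orm1 (orosomucoid 1, alpha-1-acid glycoprotein), A2m (alpha-2-macroglobulin, a broad protease trap), Serpina3n (a serine protease inhibitor), Slpi (secretory leukocyte peptidase inhibitor) and Ltf (lactoferrin, an iron-binding protein of neutrophil granules and glandular secretions). In the liver, interleukin 6 acting through Stat3 and interleukin 1 acting through NF-kB and C/EBP factors are the textbook inducers of this class, and A2m and Orm1 are classical acute-phase reactants of the rat. All 9 symbols were on the array, carried by 12 of its 30367 probes, which name 19167 symbols. For each gene the probe that was brightest over all arrays was used.

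Gene expression was measured in 11 matched pairs of tongue tissue from male F344 rats of about 33 weeks of age, on 1 one-color array per piece. Each rat gave 1 histologically verified oral squamous cell carcinoma (OSCC) and 1 adjacent phenotypically normal piece, taken 23 to 26 weeks after first exposure to 4-nitroquinoline-1-oxide (4-NQO). According to the protocols, all rats drank water with 20 ppm of this carcinogen over 10 weeks, so the normal pieces came from exposed tongues and there was no unexposed rat. The sample titles, however, read untreated for both tissues, and the treatment label of the normal pieces is none. The pieces are whole tissue, in which more cells of a type and more RNA per cell cannot be told apart.

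Expression is given as log2 signal relative to the 75th percentile of the array, so that a gene at 0 is as bright as that percentile. Values of different probes are not comparable with each other. The lowest and highest 75th percentile, in signal units, were 236.8 and 654.9 on normal arrays and 338.7 and 1414 on OSCC arrays. Between 48.4% and 56.1% of probes were well above background on normal arrays and between 52.29% and 65.49% on OSCC arrays. On this scale the array as a whole shifted down in OSCC, with a median log2 difference of -0.24, and differences are to be read against it. Across pairs, the profile of differences in animals 22 and 24 correlated least with the mean of the other pairs (r = 0.21 and 0.26), followed by animals 17 and 21 (both 0.47). The other 7 pairs lay between 0.76 and 0.84. The OSCC pieces of animals 21, 22 and 24 had summed skeletal muscle markers of 11.53, 11.16 and 11.41 on the log2 scale, within or above the normal range of 10.3 to 11.34. In the other 8 OSCC pieces the sum lay between 6.46 and 9.83. The OSCC arrays of animals 4 and 9 shared their scan day with all normal arrays, whereas the remaining 9 OSCC arrays were scanned on a different day.

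Probe sequences are shown for Lcn2 and Hp, whose OSCC and normal values did not overlap, and for Slpi, which was bright in every piece. The Lcn2 probe (rn4, chr3:11511592-11511651, minus strand) begins in coding sequence and runs past a stop codon. Its first 18 bases are shown with the stop codon in capitals. The Hp probe (rn4, chr19:39443156-39443215, minus strand) ends on a stop codon, also in capitals. The Slpi probe (rn4, chr3:155374636-155374695, minus strand) holds 4 TGT codons in 1 of its 2 open frames, shown in capitals. They are the cysteine codons of a protein family held together by disulfide bonds.
Lcn2 probe, first 18 bases: caatgcattgacaacTGA
Hp probe: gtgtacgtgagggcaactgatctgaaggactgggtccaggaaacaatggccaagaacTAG
Slpi probe: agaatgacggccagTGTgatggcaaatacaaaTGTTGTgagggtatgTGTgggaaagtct

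Of the 9 genes, 7 were called higher in OSCC (Lcn2, Hp, Lbp, Orm1, A2m, Serpina3n and Slpi) and 0 were called lower, where a call is a limma adjusted p below 0.05 with a change of at least 2-fold. Cp and Ltf were not called. The background share is 7.48% of all symbols for calls upward and 7.24% for calls downward. The median log2 difference of the 9 genes was 2.28, against -0.21 over all symbols.

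Lcn2 and Hp went from background to clear expression. In normal tissue neither gene was well above background (the software's mark for a spot brighter than its surroundings, called the background mark below) on any of the 11 arrays. In OSCC each was so on 10 of 11. Log2 expression of Lcn2 in normal tissue ran from -6.12 to -4.82 with a median of -5.84. In OSCC it ran from -3.84 to 1.47 with a median of 0.54. The lowest OSCC piece was thus above the highest normal piece, which held for 0.694% of all symbols. Lcn2 was higher in OSCC by 5.39 on the log2 scale (SE 0.51, n = 11 pairs, limma adjusted p = 8e-05), and by 1.94 to 7.51 in single rats. Because the normal signal is only a bound, the change is given as at least 12.1-fold. This bound holds for the signal as deposited. With normexp background correction, which raises dim signals, the log2 difference was 2.37, which is under that bound and still called (limma adjusted p = 0.0021).

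Haptoglobin ran from -5.97 to -4.25 in normal tissue (median -5.71). In OSCC it ran from -3.40 to 1.89 (median 0.46). These groups did not overlap either. The mean difference was 5.49 (SE 0.44, n = 11 pairs, limma adjusted p = 4.4e-05), at least 14.5-fold, and single rats lay between 2.46 and 7.48. With normexp the log2 difference was 2.25, likewise under the bound and still called (limma adjusted p = 0.0015). For both genes the OSCC pieces of animals 21 and 22 stood apart from the rest. Lcn2 was at -3.84 and -2.89 in these pieces and at -0.90 or above in the other 9. Hp was at -3.40 and -3.10 there and at -0.34 or above elsewhere. The OSCC piece of animal 16 was the highest for both genes.

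**Figure D1:**
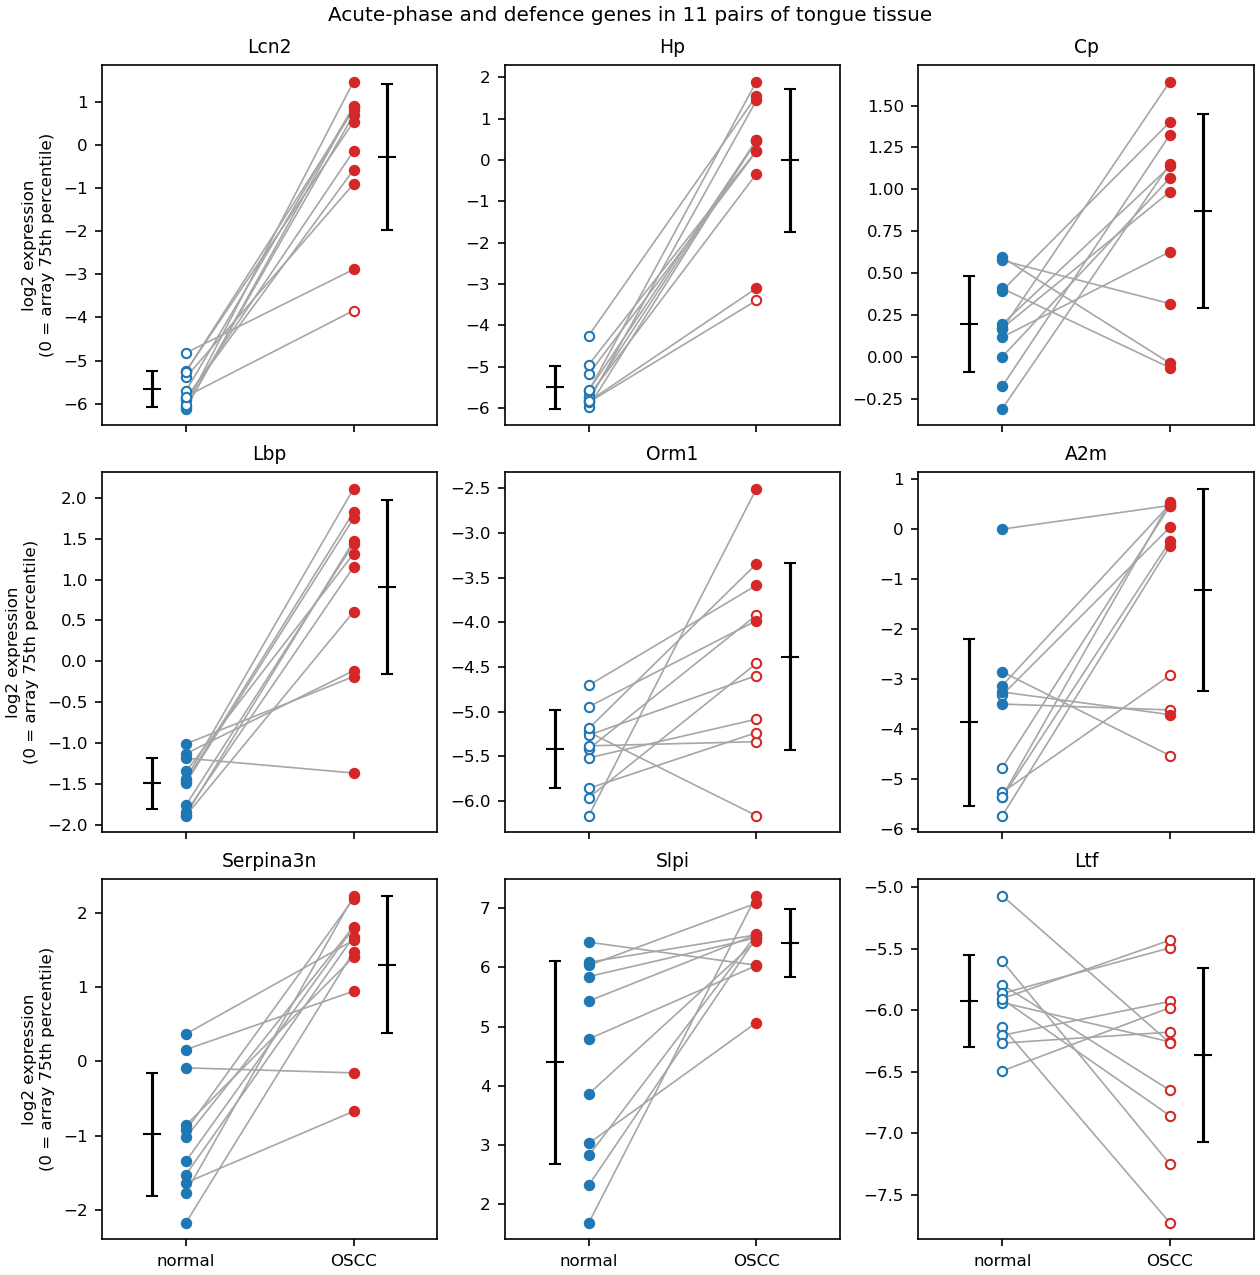
Log2 expression (0 is the 75th percentile of the array) of the 9 genes in normal tissue (blue) and OSCC (red), with a line for each of 11 rats, open points where the probe was not well above background, and the mean and SD beside each group on a scale of its own in each panel. Lcn2 and Hp rise from open points near -5.66 and -5.50 to means of -0.28 and -0.01, while Slpi narrows toward a mean of 6.41 and Ltf stays among open points.

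Lbp hands bacterial lipopolysaccharide to its receptors. It was expressed in normal tissue and rose in OSCC. On normal arrays it lay between -1.89 and -1.01 (median -1.47). On OSCC arrays it lay between -1.37 and 2.11 (median 1.32). The difference was 2.40 (SE 0.35, n = 11 pairs, limma adjusted p = 0.0005), a 5.29-fold rise, and 10 of 11 pairs went up. Animal 21 was the exception at -0.18, and its OSCC piece was the only one inside the normal range.

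Serpina3n had a similar course. Its normal values lay between -2.17 and 0.37 (median -1.02) and its OSCC values between -0.67 and 2.22 (median 1.63). It rose 4.86-fold (log2 difference 2.28, SE 0.37, n = 11 pairs, limma adjusted p = 0.00084), again in 10 of 11 pairs, with animal 21 at -0.07. The OSCC pieces of animals 17 and 21, at -0.67 and -0.15, overlapped with normal tissue, and the other 9 lay at 0.94 or above.

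A2m was high in some carcinomas and near background in others. In the OSCC pieces of animals 4, 9, 11, 13, 16, 25 and 26 its log2 expression lay between -0.34 and 0.55. In those of animals 17, 21, 22 and 24 it lay between -4.54 and -2.93, within the range of the normal pieces. The pieces of animals 9 and 16, at -0.25 and -0.34, were also under the highest normal value. The 4 low carcinomas had the highest skeletal muscle sums of all carcinomas, 9.83, 11.53, 11.16 and 11.41 in the same order. The part of muscle in the A2m levels was not tested. Normal tissue ranged from -5.74 to -0.00 with a median of -3.51, and the probe passed the background mark on 5 normal and 8 OSCC arrays. The mean difference was 2.66 (SE 0.73, n = 11 pairs, limma adjusted p = 0.014), or 6.31-fold, with 8 of 11 pairs up. Without the pairs of animals 4 and 9 the difference was 2.28 and was no longer called (limma adjusted p = 0.074). The normal piece of animal 11 was far above the other normal pieces at -0.00, but on the second probe of the gene it read -4.31.

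The second A2m probe lies at chr4:158153349-158153408 (rn4), the brighter one at chr4:158152445-158152504. On the second probe the same 7 carcinomas were high, between -1.51 and -0.13. The same 4 were low, between -5.88 and -3.89. The difference there was 1.88 (SE 0.67, n = 11 pairs, limma adjusted p = 0.039), with 7 of 11 pairs up.

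Orm1 was close to the detection limit. It passed the background mark on 0 of 11 normal arrays and on 4 of 11 OSCC arrays. Its normal values lay between -6.16 and -4.70 (median -5.38) and its OSCC values between -6.16 and -2.50 (median -4.46). The log2 difference of 1.04 (SE 0.32, n = 11 pairs, limma adjusted p = 0.024) only just met the 2-fold rule. No fold is given, since the OSCC mean was under the lowest signal that was well above background. The highest OSCC value, -2.50, was that of animal 21, whose OSCC piece was the lowest of all for Lcn2, Hp, Lbp and A2m. The call was lost on leaving out animal 11, 17, 21 or 26, with a difference between 0.78 and 1.24 over all pairs left out in turn. With scan day as a further term the difference was -0.25.

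Slpi, an inhibitor of neutrophil elastase and cathepsin G made by mucosal epithelium, was bright in both tissues. In normal tissue it varied widely, at 6.09, 5.85, 2.33, 4.79, 6.43, 5.44, 1.69, 2.83, 3.03, 3.87 and 6.03 in animals 4, 9, 11, 13, 16, 17, 21, 22, 24, 25 and 26. In OSCC it lay between 5.07 and 7.21 with a median of 6.50. The SD was 1.71 in normal tissue and 0.57 in OSCC. Slpi was higher in OSCC by 2.02 (SE 0.49, n = 11 pairs, limma adjusted p = 0.0075), or 4.05-fold, in 10 of 11 pairs. With scan day as a further term the difference was 0.56 and was not called (limma adjusted p = 0.73). The normal pieces of animals 21, 11, 22, 24 and 25 were the lowest, and the differences in these rats were 5.52, 4.18, 3.73, 2.04 and 2.58. In the other rats they lay between -0.39 and 1.24. Since the normal value enters both quantities, this is a description without a test. The OSCC piece of animal 21, lowest for Lcn2 and Hp, was the highest for Slpi.

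**Figure D2:**
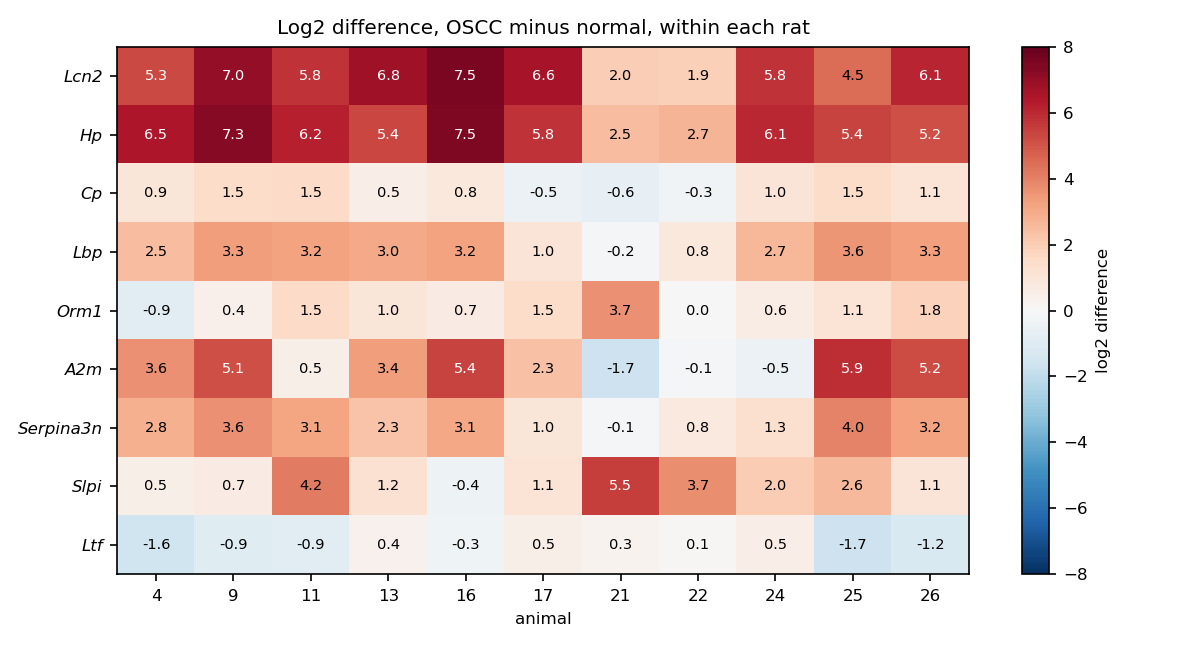
Log2 difference (OSCC minus normal) of each gene in each of the 11 rats, red where OSCC was higher and blue where it was lower. The Lcn2 and Hp rows are red in all 11 rats and palest in animals 21 and 22, and the Slpi row is deepest in animal 21 at 5.52.

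Ceruloplasmin was measured by 3 probes, and they differed. The brightest is annotated as the GPI-anchored form (rn4, chr2:105148774-105148833), which is held at the cell membrane by a lipid anchor. Its normal values ran from -0.31 to 0.60 with a median of 0.17, and its OSCC values from -0.06 to 1.64 with a median of 1.07. Its log2 difference of 0.67 (SE 0.23, n = 11 pairs, limma adjusted p = 0.032) was 1.60-fold, under the 2-fold rule, and 8 of 11 pairs went up. The pairs of animals 17, 21 and 22 went down, by 0.47, 0.63 and 0.26.

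A probe of the RefSeq Cp transcript (rn4, chr2:105135264-105135323) gave a wider separation. Its normal values lay between -2.18 and -0.89 (median -1.46) and its OSCC values between -1.48 and 1.14 (median 0.28). By this probe Cp rose 2.80-fold (log2 difference 1.49, SE 0.29, n = 11 pairs, limma adjusted p = 0.0021), in 10 of 11 pairs. Taking it in place of the brightest probe, a choice made after both were seen, brings the genes called higher to 8 of 9. A further probe of that transcript (rn4, chr2:105129670-105129729) passed the background mark on 0 of the normal and 3 of the OSCC arrays and was not called (difference 0.45, SE 0.30). Whether the forms changed unequally was not tested.

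**Figure D3:**
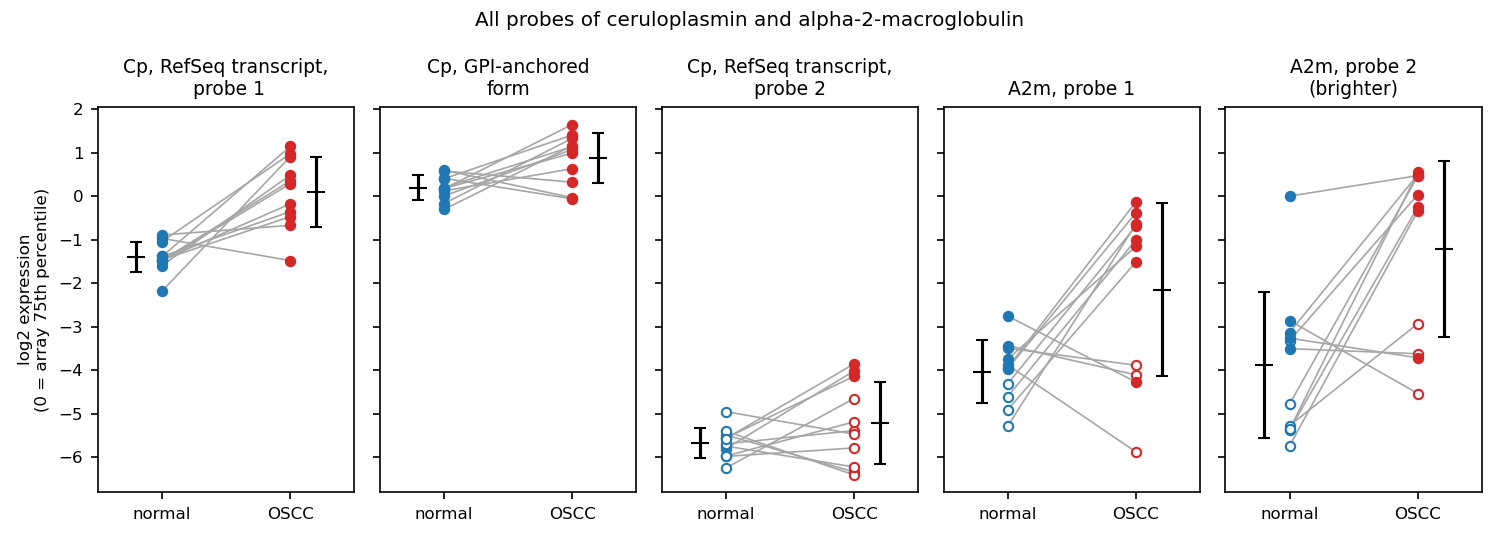
Log2 expression (0 is the 75th percentile of the array) by each of the 3 probes of Cp and the 2 probes of A2m in normal tissue (blue) and OSCC (red), lines joining the pieces of a rat, open points not well above background, bars showing mean and SD. The dimmest Cp probe sits near -5.67 in normal tissue, and both A2m probes split the carcinomas into 7 high and 4 low pieces.

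Lactoferrin stayed at background. Ltf was not well above background on any of the 22 arrays, with values between -6.49 and -5.07 in normal tissue and between -7.73 and -5.43 in OSCC. The difference was -0.44 (SE 0.24, n = 11 pairs, limma adjusted p = 0.14), with 5 of 11 pairs up, and after quantile normalization it was 0.00. The Ltf probe lies at chr8:115438446-115438505 (rn4). The probes not yet placed lie at chr3:149043196-149043255 for Lbp, chr5:80326525-80326584 for Orm1 and chr6:128469197-128469256 for Serpina3n, also in rn4.

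Marker genes of other cell types were read beside these levels. Each count of markers called is to be set against 7.48% of all symbols called higher and 7.24% called lower. For hepatocytes, the cells that secrete most plasma acute-phase proteins, 0 of 10 markers were called in either direction. Of these markers 7, albumin (Alb) among them, passed the background mark nowhere. Their sum, the log2 of the added linear levels, lay between -2.96 and -0.78 in normal tissue and between -3.51 and -1.22 in OSCC. Neutrophils carry Lcn2, Hp, Ltf and Slpi, and their markers rose: 9 of 11 were called higher, S100a8 and S100a9 at the head with log2 differences of 4.51 and 4.78. Their sum ranged from 0.84 to 2.57 in normal tissue and from 1.79 to 8.66 in OSCC. Because linear levels are added, S100a8 and S100a9 weigh most in it. Their OSCC medians were 4.82 and 5.64, against 1.39 or below for each other neutrophil marker. S100a8 lacked a value on 1 OSCC array and did not enter the sum of that piece, which is therefore too low. Of 6 granule genes of neutrophil precursors, 1 (Camp) was called higher, and Mpo, Prtn3, Ctsg and Ngp passed the background mark on 0 of the 22 arrays.

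The OSCC piece of animal 24 had the lowest neutrophil sum of all carcinomas, 1.79, which is inside the normal range. As S100a8 and S100a9 weigh most in this sum, it is no count of neutrophils. The same piece also had the lowest sum of squamous epithelial markers among carcinomas, 7.99. Lcn2 was at 0.54 and Hp at 0.48 in that piece, both 5.79 or more above the normal piece of the same rat. The piece of animal 16 had the highest sum, 8.66, and the highest Lcn2 and Hp. In animals 21 and 22, which had the lowest Lcn2 and Hp, the sum was 3.43 in the first and lower in the second. The part of neutrophils in these levels was not tested further.

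Markers of salivary and von Ebner glands were also higher, 10 of 13 called, and their sum ran from -1.66 to 1.59 in normal tissue and from 1.48 to 12.72 in OSCC. It was lowest in the carcinomas of animals 26, 25 and 22, at 1.48, 1.95 and 2.74. The carcinomas of animals 17, 16, 24, 9 and 4 had the highest gland sums, at 12.72, 11.79, 11.76, 11.38 and 10.52. The same 5 pieces were the highest for Hp, and those of animals 16, 17 and 9 were the highest for Lcn2. The gland-rich pieces of animals 4 and 24 had Lcn2 at -0.58 and 0.54. In the gland-poor pieces of animals 25, 26 and 22 Lcn2 was at -0.90, 0.82 and -2.89. Hp was at 0.20, 0.22 and -3.10 there. The part of gland tissue in these levels was not tested. Macrophage markers were called higher in 5 of 8, with sums of 3.67 to 4.83 in normal tissue and 3.93 to 5.70 in OSCC. Fibroblast markers were called higher in 6 of 9. Of 7 squamous epithelial markers found on the array, 1 was called higher and 1 lower, and all were well above background on every array. Their sum was higher in OSCC in 4 of 11 pairs. In the normal pieces of animals 11, 21, 22, 24 and 25, the lowest for Slpi, it lay between 8.92 and 9.33. In the other normal pieces it lay between 9.47 and 9.98. Among carcinomas it was highest in animals 21 and 26 (10.04 and 9.79) and lowest in animal 24 (7.99), as Slpi was. In between, the orders differed. The carcinoma of animal 4 had a sum of 8.85 with Slpi at 6.55, that of animal 16 a sum of 9.60 with Slpi at 6.04. The part of epithelium in the Slpi levels was not tested. Of 8 endothelial and 7 adipocyte markers 0 were called. Of 9 skeletal muscle markers 7 were called lower and 1 higher. Without the muscle-rich carcinomas of animals 21, 22 and 24 the differences were 6.19 for Lcn2, 6.14 for Hp, 3.94 for A2m, 2.89 for both Lbp and Serpina3n, and 1.36 for Slpi. All 6 were still called.

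**Figure D4:**
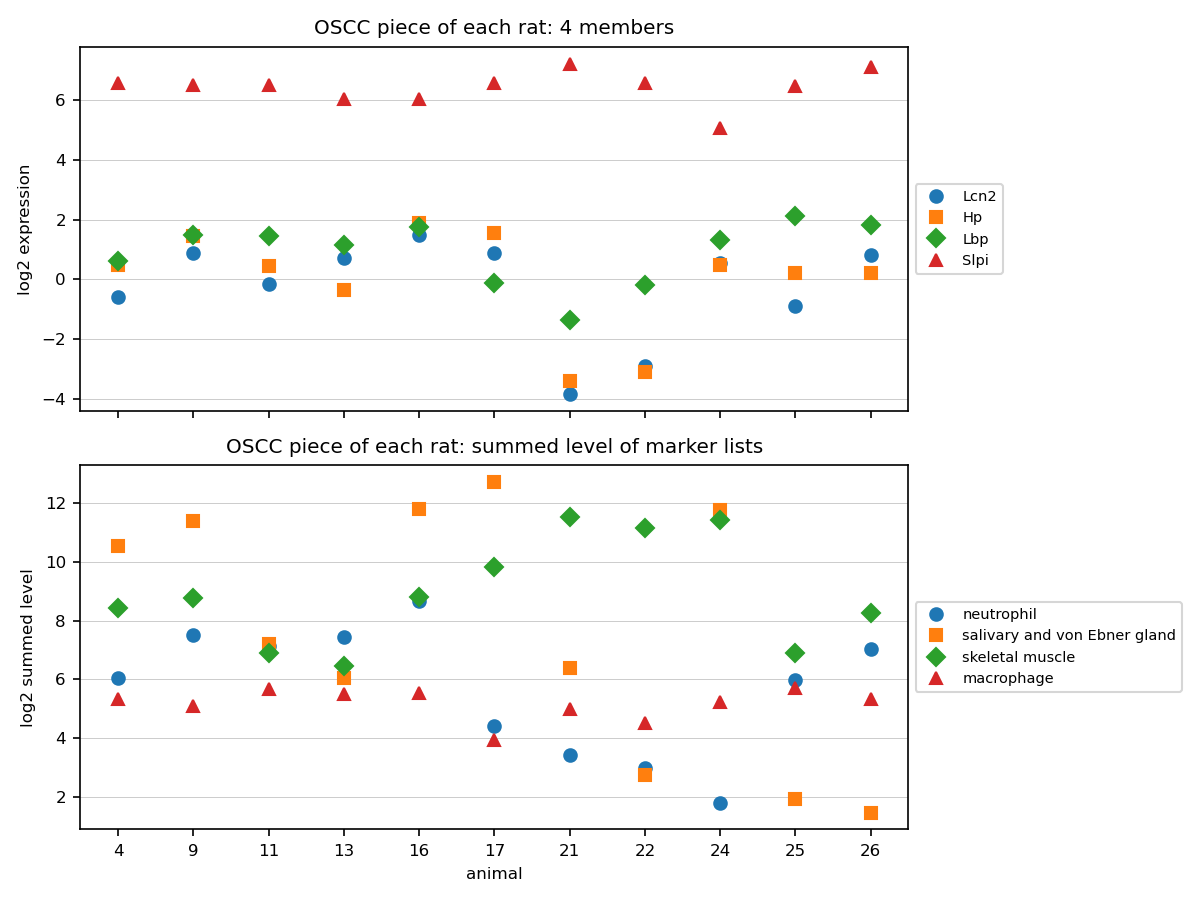
Log2 expression of Lcn2, Hp, Lbp and Slpi in the OSCC piece of each of the 11 rats (upper panel) and the log2 summed level of 4 marker lists in the same pieces (lower panel). Lcn2 and Hp are lowest in animals 21 and 22, the neutrophil sum is lowest in animal 24 at 1.79, and the gland sum is lowest in animal 26 at 1.48.

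In 2 pairs both tissues were scanned on the same day, though on different slides. In these animals, 4 and 9, the difference was 5.30 and 7.01 for Lcn2, 6.46 and 7.27 for Hp, and 2.50 and 3.35 for Lbp. Serpina3n differed by 2.83 and 3.64 and A2m by 3.63 and 5.13, all within the range of the other pairs. Slpi differed by 0.46 and 0.65 and Orm1 by -0.94 and 0.43. With scan day as a term, the differences were 6.15 for Lcn2 (limma adjusted p = 0.084) and 6.86 for Hp (limma adjusted p = 0.081). The difference was 2.92 for Lbp, 3.24 for Serpina3n, 4.38 for A2m, 1.20 for Cp, 0.56 for Slpi, -0.25 for Orm1 and -1.27 for Ltf. In that fit 0 of the 9 genes and 3 of all 30367 probes were called. By the looser rule of an unadjusted p below 0.05 with a 2-fold change, 7 of the 9 passed (Ltf downward, the others upward). So did 9578 of the 30367 probes.

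The genes whose profile over the 11 OSCC arrays was nearest, by root mean square distance in log2 units after each gene was centred, were listed for 7 members among 11643 symbols. Hp was the nearest of all to Lcn2, at 0.64, against a spread of 1.61 for Lcn2 itself. Next came LOC690479 at 0.68 and Cfi, complement factor I, at 0.72. Nearest to Hp was Padi4, a peptidyl arginine deiminase of granulocytes, at 0.43, then Cfi at 0.57 and Lcn2 at 0.64. The nearest to Lbp were Cebpe (0.35), a C/EBP factor of granulocyte maturation, Scrn1 (0.39) and Fmo5 (0.47). A2m lay nearest to Clec4d (0.50), a lectin receptor of myeloid cells, Ifit3 (0.52) and Fcrls (0.52). Serpina3n had RGD1565046 (0.26), Abca1 (0.33) and RGD1559482 (0.34), Slpi had RGD1308470 (0.20), Klc3 (0.21) and Dlg2 (0.23), and Cp had Arid5a, Lyl1 and Ifitm7 (0.18 to 0.22). Each distance is to be read against the spread of the gene itself. That spread was 1.65 for Hp, 1.02 for Lbp, 1.93 for A2m, 0.88 for Serpina3n, 0.54 for Slpi and 0.55 for Cp. These distances describe shared ups and downs in the same 11 libraries.

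The inducers of the acute-phase response were partly higher in OSCC. Of 25 genes on this list 11 were called higher and 0 lower, with a median difference of 0.85, against 14.7% of symbols with a call in either direction. Interleukin 1 led: Il1b rose by 4.17 (SE 0.73, limma adjusted p = 0.0013), or 17.9-fold, and Il1a by 3.07, or 8.37-fold, each in 10 of 11 pairs. Among cytokines that passed the background mark on 0 of the normal arrays, Osm (oncostatin M) rose at least 3.44-fold, Il11 at least 2.92-fold (10 pairs measured) and Il17a at least 1.67-fold. On OSCC arrays Osm passed the mark on 9, Il11 on 6 and Il17a on 7. Pairs that went up were 10 of 11 for Osm, 7 of 10 for Il11 and 8 of 11 for Il17a. Tnf, which passed the mark on 3 normal arrays, rose 4.31-fold. Il6 itself was dim, past the background mark on 0 of the normal arrays and 4 of the OSCC arrays, with a difference of 1.09 (SE 0.37, limma adjusted p = 0.033).

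Downstream, Socs3, the feedback inhibitor that Stat3 induces, rose 5.23-fold (log2 difference 2.39, SE 0.39, limma adjusted p = 0.00094). Its lowest OSCC value, -1.26, lay just above its highest normal value, -1.30. Such a separation upward held for 0.694% of all symbols. Nfkbiz, an NF-kB cofactor known to act on the Lcn2 gene, rose 2.05-fold (limma adjusted p = 0.023), in 7 of 11 pairs. The receptor gene Il1r1 was higher by 1.35. The transcription factor genes themselves were not called: Stat3 differed by 0.02 (SE 0.12), Cebpb by 0.38 (SE 0.13) and Cebpd by 0.85 (SE 0.17). Transcript levels do not report the activity of these factors.

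Among receptors, partners and protease targets 6 of 23 were called higher and 0 lower, with a median of 0.36. Over all symbols the shares were 7.48% higher and 7.24% lower. For Lbp, the genes of the recognition chain for lipopolysaccharide were called higher too: Cd14, which accepts it from Lbp, 4.31-fold, Tlr4 4.52-fold (past the background mark on 4 normal arrays) and Ly96, the Tlr4 co-receptor, 2.62-fold, each in 11 of 11 pairs. Tlr2 rose 5.30-fold. Mmp9, a gelatinase that human lipocalin 2 binds, rose by 3.78 on the log2 scale (SE 0.95, limma adjusted p = 0.0087), from a normal signal that passed the background mark on 1 of 11 arrays. Slc22a17, a proposed receptor of lipocalin 2, differed by -0.10 (SE 0.15). For haptoglobin, Hmox1, which degrades heme, rose 3.90-fold, while Cd163, the scavenger receptor of the haptoglobin and hemoglobin complex, differed by 0.36 (SE 0.24) and was not called. Elane, the elastase that Slpi inhibits, passed the background mark on 0 of the normal arrays and 1 OSCC array (difference 0.45, SE 0.13, not called).

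Of 28 other acute-phase proteins 9 were called higher and 1 lower, with a median of 0.34, against 7.48% and 7.24% of all symbols. C3, the central complement protein, rose 8.07-fold, and Cfb, complement factor B, 5.18-fold. Ptx3, a pentraxin made locally by many cells, rose by 2.89 on the log2 scale (SE 0.62), from a normal signal that passed the background mark on 1 of 11 arrays. Kng1 (kininogen) rose at least 1.61-fold and Hpx (hemopexin, which binds heme) at least 1.84-fold. Lrg1 rose 2.31-fold and Il1rn, the interleukin 1 receptor antagonist, 2.29-fold. Itih3, a hyaluronan-binding protein, fell 4.81-fold in 11 of 11 pairs (limma adjusted p = 0.00018). Another 9 genes, including the 3 fibrinogen genes Fga, Fgb and Fgg and Crp, named after their values were seen, passed the background mark on 0 of the 22 arrays.

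Other secreted defence proteins had the highest share of calls among these 4 lists, 14 of 22 higher and 0 lower, with a median of 1.61. The shares over all symbols were 7.48% higher and 7.24% lower. Bpifb1 and Bpifa1, which are also in the gland list, rose most, by 9.24 on the log2 scale and at least 75.9-fold. S100a9 and S100a8, also neutrophil markers, rose 27.5-fold and 22.7-fold, S100a8 over 10 pairs. Chi3l1 (a chitinase-like protein) rose 18.2-fold, Wfdc2, which shares the fold of Slpi, 7.48-fold, Lpo (lactoperoxidase, past the background mark on 5 normal arrays) 5.72-fold and Pigr (the transporter of secretory antibodies) at least 3.80-fold. Pigr passed the background mark on 7 OSCC arrays and went up in 8 of 11 pairs.

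**Figure D5:**
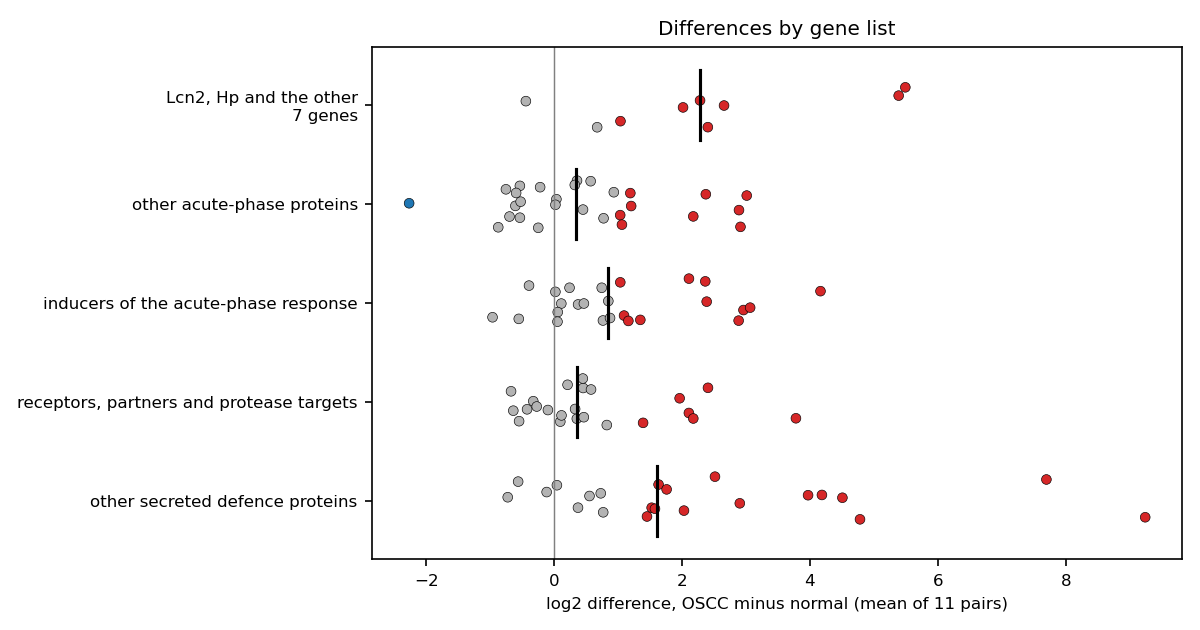
Log2 difference (OSCC minus normal, mean over pairs) of each gene in the 9-gene group and in the 4 related lists, red where called higher, blue where called lower, grey where not called, with a bar at the median of each row. The medians are 2.28, 0.34, 0.85, 0.36 and 1.61 from top to bottom, and Itih3 is the single blue point.

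Promoter sequence, the 250 bases before the start of transcription in RefSeq (GRCr8), was matched for Lcn2, Cp, Orm1, Serpina3n and Ltf. It was searched on both strands for 4 motifs: STAT (TTCNNNGAA), C/EBP (TTNNGNAAT), NF-kB (GGGA, any 3 bases, TCC) and the TATA box (TATAAA). Of 33469 promoters of that length, 7.67% held the STAT letters, 10.9% C/EBP, 3.38% NF-kB and 12.9% TATA. The Lcn2 promoter holds the NF-kB letters 243 bases before the start, overlapping with a match on the other strand, and Serpina3n holds STAT letters at 123 and C/EBP letters at 57 bases before it. Both sequences are shown with these matches in capitals, for 1 gene whose tissue groups did not overlap and 1 whose groups did.
Lcn2 promoter, chr3:36081781-36082030, minus strand: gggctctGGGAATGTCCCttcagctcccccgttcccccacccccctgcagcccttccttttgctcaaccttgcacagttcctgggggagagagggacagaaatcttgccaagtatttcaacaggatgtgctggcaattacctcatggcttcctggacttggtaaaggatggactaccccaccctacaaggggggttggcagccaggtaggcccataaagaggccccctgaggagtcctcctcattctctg
Serpina3n promoter, chr6:129088142-129088391, plus strand: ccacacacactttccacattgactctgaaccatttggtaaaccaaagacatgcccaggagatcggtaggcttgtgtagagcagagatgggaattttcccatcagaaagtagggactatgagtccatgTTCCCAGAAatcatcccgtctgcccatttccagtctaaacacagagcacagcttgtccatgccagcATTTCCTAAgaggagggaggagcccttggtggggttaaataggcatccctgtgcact

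Orm1 holds a C/EBP match and a TATA box, Cp a TATA box with an overlapping match on the other strand, and the Ltf window holds none of these letters. A match is a description of the sequence and says nothing of whether a factor was bound in these tissues.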

How the data were processed

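RNA of 11 OSCC and 11 normal pieces was hybridized to Agilent one-color rat arrays. The authors extracted the intensity values with Feature Extraction 9.5.3.1, which subtracts background and spatial trends, and deposited them as linear signal without scaling between arrays. A further deposited table holds signal as a linear ratio to the 75th percentile of each array. Of its values at or above 0.5, 99.9% equalled the spot means divided by that percentile within 2%. Positions are those of rn4 in the array annotation.

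Control spots and 9196 outlier spots (0.975%) were left out, log2 signals of the 42877 spots were averaged to 30367 probes, and the 75th percentile of each array was subtracted. No probe was filtered for low signal, and 68 probes lacked a value on at least 1 array and were fitted without it. The number of arrays limits the precision, and for dim genes so does signal over background. A probe counted as well above background where more than 50% of its spots carried that mark of the software. Where a gene was so on 0 arrays of a tissue, the fold is a lower bound against the lowest such signal of each array, or the gene's own if higher.

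The tissues were compared in a limma model (version 3.58.1, R 4.3.3) whose terms were tissue and rat. The 2 pieces that share a number come from the same animal, and their deviations from the tissue means correlated between -0.21 and 0.24. Benjamini-Hochberg adjustment covered all probes. The paper names Student's t-test with an unadjusted threshold and the same fold, run here as the methods' t-test. The script was tested on simulated data. Alternatives were scaling, background correction, a filter on dim probes, the rat block, scan day, slide, the test, the probe of a gene and pairs left out.

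The 9 genes, the 4 related lists and the markers were chosen with earlier results of these data known, and the study itself names Lcn2 and Hp for these arrays, so their counts are descriptions. From each list are named the up to 8 called genes with the largest difference and those with a direct role for 1 of the 9. Il17a, Il6r, Ftl1, Bpifa1, Bpifb1 and Cxcr2 carry older names on the array and were found by accession. Of 10 squamous and 8 adipocyte markers, 7 and 7 were found.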

Additional observations from a re-analysis of the deposited data

How the results depend on the processing

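With rat left out (no replicate block) 7 genes were called higher and 4227 probes in all, and that block changed no call among the 9 genes. Lcn2, Hp, Lbp, Serpina3n and Slpi were called higher in every setting run except with scan day as a term. A2m was not called in that setting or without animals 4 and 9, and Orm1 was not called with median scaling (0.84), normexp (0.16), the authors' scaled values (1.00), the slide block (1.02), scan day or without animals 21, 22 and 24 (0.89), and did not enter the dim filter. The Orm1 difference reversed to -0.251 with scan day as a term, and that of Ltf, not called in any setting at 2-fold, to 0.004 after quantile normalization. With scan day as a term 0 of the 9 genes, 3 of all probes and 0 of each of the 4 lists were called by limma, against 7, 9578, 12, 5, 8 and 12 that changed 2-fold with an unadjusted p below 0.05 (lists in the order acute-phase, inducers, receptors, defence). That fit rests on 2 pairs within a day, and scan and tissue are otherwise confounded. The slide block is a random term, and as no slide held both tissues it cannot remove a slide effect that follows tissue. Normexp, which lifts dim signals, called 1701 probes, 5 other acute-phase proteins and 5 inducers, and gave 2.37 for Lcn2 and 2.25 for Hp. The filter on dim probes called 7 inducers, since it tests fewer genes. Without animals 21, 22 and 24, 6924 probes were called, and without animals 4 and 9, 6 other acute-phase proteins. The cause was not tested. Leaving out each pair in turn gave 6 to 7 of the 9 genes higher and 0 to 0 lower, 3649 to 4799 probes, 7 to 11 other acute-phase proteins, 8 to 12 inducers, 6 to 6 receptors and partners and 13 to 14 defence proteins. The median log2 difference of all probes was -0.24, and -0.03 with quantile, -0.44 with median, -0.15 with detected-probe scaling, -0.08 with normexp and -0.14 in the authors' values. The methods' t-test called 7 of the 9 genes and 4248 probes unadjusted, 7 and 4002 after Benjamini-Hochberg. For genes near background, signal over background limits the fold.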
